A study of Mus musculus with 12 samples.

Results

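The VEGF and angiopoietin factors followed here are 8 genes, taken by their symbols from both deposited tables out of 15557 genes listed in either table. There are 6 secreted ligands, namely Vegfa, Vegfb, Vegfc, Pgf, Angpt1 and Angpt2, and 2 receptors of the VEGF ligands, Flt1 and Kdr, which are carried mainly by endothelial cells and were included for comparison. All 8 genes were present in both tables and passed the minimum mean of 10 normalized reads used for testing. The study profiled dermal papilla (DP) cells, the mesenchymal cells at the base of the hair follicle, by RNA-seq in control mice and in dMF1/2 mice, which lack Fgfr1 and Fgfr2 in these cells. There were 3 control and 3 dMF1/2 libraries at postnatal day 14 (P14) and the same numbers at P16, both within the anagen, or growth, phase of the first hair cycle in the labels. The comparisons ask how the DP transcriptome depends on Fgf signaling and how it moves over these days.

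The dMF1/2 animals were Cor-cre/+ with both Fgfr1 and Fgfr2 floxed on both chromosomes, and Cor-cre is a Cre allele placed in Corin, a gene of the postnatal DP. The controls are labelled as wild type, whereas the breeding scheme in the methods gives them either as Cor-cre/+ with 1 floxed copy of each receptor gene or as Cre-negative with floxed receptors. All animals were bred to hold a Cre-dependent YFP reporter in ROSA26, and YFP-positive cells were sorted in successive rounds of FACS from dissociated whole skin, so a control without Cre would give no YFP-positive cells. Of the control genotypes listed, the Cor-cre/+ one with 1 floxed copy of each receptor gene would then be the sorted one. The labels do not say which of them gave each library. Cells of any other type in which the Cre acted, or which passed the gate, would be in the libraries too.

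VEGF ligands are secreted proteins that bind receptor tyrosine kinases on blood and lymphatic endothelium. Vegfa drives the growth and permeability of blood vessels mainly through Kdr (VEGFR2), whereas Flt1 (VEGFR1) binds Vegfa, Vegfb and Pgf and can act as a sink for them, and Vegfc acts mainly on the lymphatic receptor Flt4. Angiopoietins bind the endothelial receptor Tek (Tie2), with Angpt1 as its activating ligand and Angpt2 as a context-dependent antagonist. In skin, the vessels around the follicle expand during hair growth and regress afterwards, and Vegfa of the follicle is a known regulator of that cycle.

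The libraries held 19302358 to 29860750 reads each. Both P14 libraries numbered 1 stood apart: Col1a1, the most abundant gene in every library, took 7.06% of reads in control 1 and 9.15% in dMF1/2 1 at P14, against 13.1% to 17.7% in the other 10 libraries. Values without both are given where leaving them out changes the call of a gene named here, and changes of direction are in the closing section. Fgfr1, the first targeted gene, ran from 7745 to 9981 normalized reads in the P14 controls and from 6391 to 7405 in the P14 dMF1/2 libraries, and from 8512 to 12517 and from 6226 to 8015 at P16, without overlap on either day, but passed limma on neither (log2 -0.40, adjusted p = 0.501, and -0.50, adjusted p = 0.130; with the replicate block the adjusted p was 0.0109 at P16). Fgfr2 overlapped between genotypes on both days (log2 fold change -0.11 at P14 and -0.01 at P16). A gene count includes exons outside the floxed segment, so neither value measures the deletion itself. All 10 DP markers were detected in all libraries, led by Corin, Wif1 and Vcan, and their sum ran from 43631 to 138765 normalized reads. The 11 endothelial markers summed to 529 to 1786 normalized reads.

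The promoters of Vegfa and Vegfb, the ligands that fell with age in the controls, and of Flt1 and Kdr, the receptors whose levels lay on opposite sides of the controls at P16, are shown to give the sequence around an annotated start of each gene. The counts do not show which start was used. Each is 300 bases long, from 250 bases before to 50 bases after the RefSeq start (build GRCm38.p6), read 5′ to 3′ on the gene's strand. Capitals mark the core of the hypoxia response element (ACGTG or GCGTG) and the core CCGGAA bound by factors of the ETS family, each searched on both strands. These motifs were picked because hypoxia-inducible factors and ETS factors are textbook regulators of VEGF genes and of endothelial genes.
Vegfa, chr17:46032328-46032627, minus strand: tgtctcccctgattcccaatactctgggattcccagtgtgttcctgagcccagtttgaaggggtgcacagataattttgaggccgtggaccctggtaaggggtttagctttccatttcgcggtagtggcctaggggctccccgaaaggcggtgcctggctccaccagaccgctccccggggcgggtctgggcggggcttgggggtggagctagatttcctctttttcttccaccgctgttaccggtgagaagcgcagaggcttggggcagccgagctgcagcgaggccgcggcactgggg
Vegfb, chr19:6987602-6987901, minus strand: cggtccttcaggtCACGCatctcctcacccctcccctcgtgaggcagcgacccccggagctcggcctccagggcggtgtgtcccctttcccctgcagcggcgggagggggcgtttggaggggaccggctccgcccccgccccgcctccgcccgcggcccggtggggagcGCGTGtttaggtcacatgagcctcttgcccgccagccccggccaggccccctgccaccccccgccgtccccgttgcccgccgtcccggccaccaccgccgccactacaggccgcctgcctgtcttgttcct
Flt1, chr5:147725962-147726261, minus strand: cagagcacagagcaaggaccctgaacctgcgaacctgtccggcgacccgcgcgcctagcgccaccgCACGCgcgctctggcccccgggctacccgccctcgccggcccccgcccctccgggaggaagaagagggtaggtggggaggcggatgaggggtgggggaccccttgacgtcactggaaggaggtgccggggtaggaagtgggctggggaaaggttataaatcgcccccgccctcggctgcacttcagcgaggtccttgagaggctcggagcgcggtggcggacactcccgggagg
Kdr, chr5:75978406-75978705, minus strand: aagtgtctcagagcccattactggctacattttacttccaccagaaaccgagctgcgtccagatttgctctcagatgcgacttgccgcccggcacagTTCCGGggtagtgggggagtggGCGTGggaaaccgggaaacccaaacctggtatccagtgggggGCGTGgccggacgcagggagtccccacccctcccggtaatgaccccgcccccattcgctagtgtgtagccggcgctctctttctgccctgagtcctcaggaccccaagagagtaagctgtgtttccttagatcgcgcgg
The hypoxia core was found at 2 positions for Vegfb (-237 and -81 from the start), at 1 for Flt1 (-184) and at 2 for Kdr (-131 and -89), and these letters were not in the Vegfa window shown. A second Vegfa window in the table, chr17:46025114-46025413, held 2, at -218 and -211. Its start lies downstream of the first on the minus strand, so both matches also lie downstream of the first start. Kdr alone of the 4 windows shown held the ETS core, at -153. Of 32851 mouse promoter windows of this length in the same table, 43.8% held at least 1 hypoxia core and 14.9% at least 1 ETS core, so a match is a description of the window and not a site. Of the other ligands, the first Pgf window held 1 hypoxia core, at -124, and the Vegfc window held none. Promoters of 6 of the 8 genes were matched in the RefSeq table, and those of Angpt1 and Angpt2 were not matched.

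Dermal papilla libraries carried all 6 ligands, with the VEGF genes far above the angiopoietins. To compare genes with each other, reads were rescaled over all 12 libraries together and divided by exonic length. Vegfa led with a mean of 309 normalized reads per kb (range 222 to 402), a level above that of 83.6% of the genes tested. Vegfc followed at 224 (95.9 to 303) and Vegfb at 131 (87.4 to 183). A gap then separated Vegfb from Angpt1, at 44.7 (33.1 to 58.2), and Vegfb was above Angpt1 in 12 of 12 libraries. The remaining genes lay close together, with Pgf at 32.7 (20.6 to 40.2), Kdr at 30.9 (10.01 to 55.4), Angpt2 at 28.4 (18.6 to 52.5) and Flt1 at 27.4 (8.29 to 68.7).

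Of the neighbours in that order, Vegfa was above Vegfc in 10 of 12 libraries, Vegfc above Vegfb in 10 and Angpt1 above Pgf in 11. Both P14 libraries numbered 1 were the exceptions for Vegfc and Vegfb, since Vegfc was low there. Pgf was above Kdr in 6 of 12 libraries, Kdr above Angpt2 in 8 and Angpt2 above Flt1 in 6, so these last 4 genes did not differ beyond their spread. The receptors varied most: the highest Flt1 level and the lowest were on different days and in different genotypes.

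**Figure D1:**
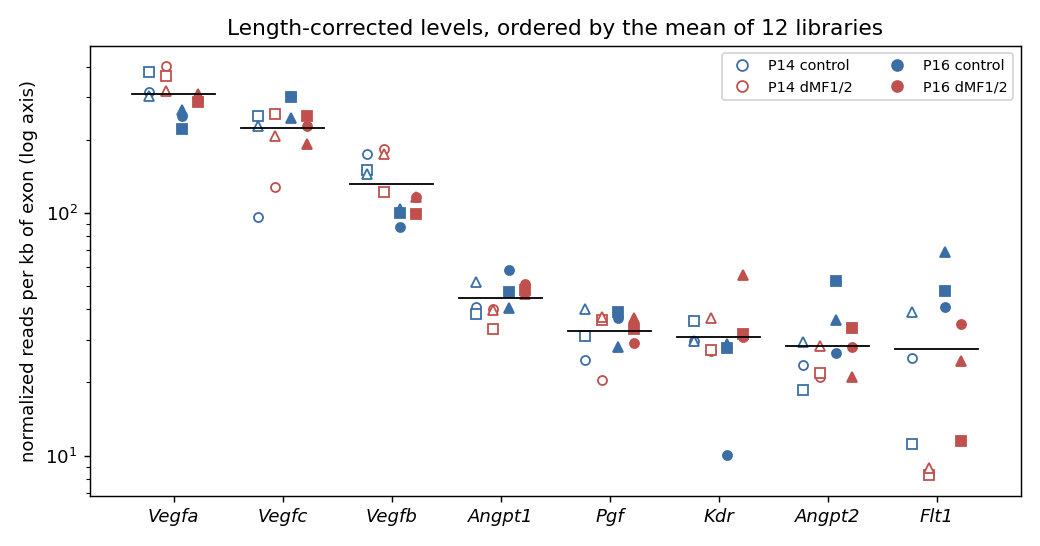
Normalized reads per kb of exon on a log axis for the 8 genes, ordered by the mean of the 12 libraries (black line). Open and filled symbols are P14 and P16, blue and red are control and dMF1/2, and circles, squares and triangles are replicates 1, 2 and 3. Vegfa, Vegfc and Vegfb form the upper group, and Flt1 spreads from 8.29 to 68.7.

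Vegfa, the main growth factor for blood vessels, was lower at P16 than at P14. In the deposited values the P14 controls held 1336, 1609 and 1287 normalized reads and the P16 controls 1095, 967 and 1155. The dMF1/2 libraries held 1697, 1551 and 1349 at P14 and 1263, 1249 and 1351 at P16. Each table was normalized by the authors on its own, so the days were compared after rescaling all 12 libraries together. On that scale Vegfa fell in the controls from 1429.9 ± 177 to 1057 ± 96.6 (SD, n = 3), to 0.739 of its P14 level (log2 fold change -0.43, SE 0.11, adjusted p = 0.0277 by limma over 13415 genes). The P14 and P16 controls did not overlap, and neither did the dMF1/2 libraries, whose log2 difference of -0.29 (SE 0.11) did not pass the test (adjusted p = 0.149).

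Vegfb, a ligand of Flt1 alone among the VEGF receptors, fell more steeply in the controls. Its deposited values were 278, 238 and 230.2 normalized reads in the P14 controls and 142, 163 and 168 in the P16 controls. The dMF1/2 libraries held 289, 193 and 279 at P14 and 191, 161 and 189 at P16, so the P16 libraries lay below every P14 library of their own genotype. On the common scale the control mean fell from 252 ± 25.7 to 156 ± 13.6, to 0.617 of the P14 level (log2 fold change -0.69, SE 0.16, adjusted p = 0.0171 by limma). In the dMF1/2 libraries the log2 difference was -0.51 (SE 0.16, adjusted p = 0.0808 by limma), and DESeq2 on the recovered reads placed it past the threshold (adjusted p = 0.0331, in a fit that called 10% of all genes), as did leaving out dMF1/2 2 of P14 (-0.70, adjusted p = 0.0248). It was -0.40 without both P14 libraries numbered 1 (adjusted p = 0.162 by limma). In bulk libraries, fewer cells of a type and less RNA per cell cannot be told apart.

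The DP marker levels of the same libraries were set beside these values. On the common scale the 10 DP markers summed to 140541, 120985 and 103119 normalized reads in the P14 controls and to 43003, 82897 and 72703 in the P16 controls, without overlap. Of the 10 markers, 4 fell between days in the controls and none rose, where 8.28% of all genes were called lower and 6.26% higher, with a median log2 difference of -0.92. Of these 4, Fgf7 did not pass without both P14 libraries numbered 1 (adjusted p = 0.0963 by limma). In the dMF1/2 libraries, where the sums overlapped between days (85833 to 139807 at P14 and 82709 to 126033 at P16), none passed. The share of mitochondrial reads was also lower, at 1.06% to 1.36% in the P14 controls and 0.623% to 0.854% in the P16 controls, and at 0.928% to 1.59% and 0.634% to 0.823% in dMF1/2. The part of these values in the Vegfa and Vegfb differences was not tested.

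Vegfa and Vegfb were the 2 of 8 genes that passed the test between days in the controls, where 14.5% of all genes tested did and 8.28% were lower at P16. No member passed it in the dMF1/2 libraries, where 5.80% of genes did. The calls rest on few libraries. The Vegfa call was lost without control 1 of P14 (adjusted p = 0.0559), control 2 of P14 (0.0886), control 1 of P16 (0.0723) or control 2 of P16 (0.0765), and the Vegfb call without control 1 of P14 (0.0678), control 1 of P16 (0.0702) or both P14 libraries numbered 1 (0.0544). Fitting only the 6 control libraries also lost the Vegfa call (adjusted p = 0.0693 by limma) and not the Vegfb call (0.0366). Leaving out 1 of these control libraries kept the log2 fold change between -0.33 and -0.50 for Vegfa and between -0.61 and -0.74 for Vegfb. The fall of Vegfa or Vegfb was not shown to differ between genotypes, since the interaction was 0.14 (95% confidence interval -0.20 to 0.49) and 0.18 (-0.31 to 0.67) on the log2 scale.

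**Figure D2:**
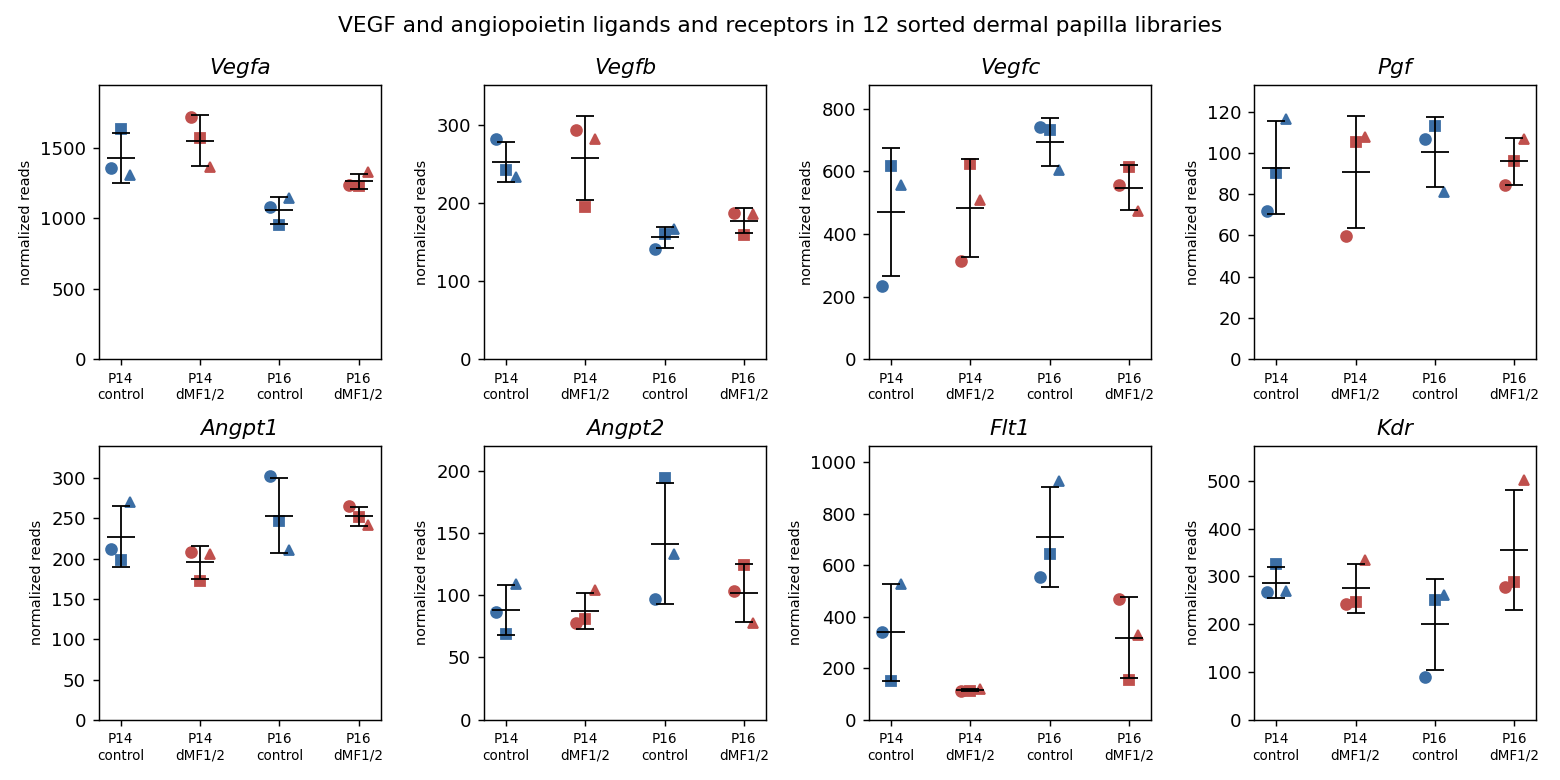
Normalized reads of each gene in the 12 libraries, rescaled over all libraries together, so that values differ slightly from the deposited ones given in the text. Circles, squares and triangles are replicates 1, 2 and 3, and the bars are the mean and SD of 3 libraries. Vegfa and Vegfb lie lower at P16 in both genotypes, and Flt1 lies lower in dMF1/2 on both days.

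Between genotypes, neither ligand of this pair passed the test. Vegfa did not overlap at P16, where all 3 dMF1/2 libraries (1249 to 1351 normalized reads) were above all 3 controls (967 to 1155), a ratio of 1.20 (log2 0.27, SE 0.09, adjusted p = 0.159 by limma, two-sided exact permutation p = 0.1, the smallest that 3 against 3 libraries allow). At P14 the genotypes overlapped, with a log2 difference of 0.12 (95% confidence interval -0.18 to 0.41), and of 0.0070 without both libraries numbered 1. Vegfb overlapped on both days, with log2 differences of 0.01 (-0.41 to 0.43) at P14 and 0.19 (-0.11 to 0.50) at P16.

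Vegfc, the ligand best known for lymphatic vessels, was the most uneven ligand at P14. Its controls held 232, 608 and 549 normalized reads and its dMF1/2 libraries 309, 619 and 503, and in both genotypes the low value was the library numbered 1. The P16 controls held 753, 746 and 612 and the P16 dMF1/2 libraries 569, 625 and 482, so that 1 dMF1/2 library lay above the lowest control. The P16 difference was -0.33 on the log2 scale (SE 0.13), a mean of 559 ± 72.4 against 704 ± 79.3 (SD, n = 3), and did not pass the test (adjusted p = 0.205 by limma). With the replicate number as a block, which pairs libraries within a day, the same difference had an SE of 0.07 and an adjusted p of 0.0375, in a fit where 10.4% of all genes passed. Between days the controls differed by 0.68 (SE 0.33, adjusted p = 0.183 by limma), and by 0.24 without control 1 of P14.

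Pgf, placental growth factor, which binds Flt1, overlapped between genotypes and days. The P14 controls held 70.8, 89.0 and 115 normalized reads and the dMF1/2 libraries 58.8, 105 and 107. At P16 the controls held 108, 115 and 82.1 and the dMF1/2 libraries 86.4, 98.0 and 109. The genotype difference was -0.05 on both days on the log2 scale, with 95% confidence intervals from -0.73 to 0.63 at P14 and from -0.46 to 0.36 at P16.

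Angpt1, the activating ligand of Tek, also overlapped between genotypes. It held 209.6, 196 and 267 normalized reads in the P14 controls and 206, 171 and 204 in the P14 dMF1/2 libraries. At P16 it held 307, 251 and 214 in controls and 271, 256 and 247 in dMF1/2. The log2 differences on the 2 days were -0.20 (-0.57 to 0.16) and 0.02 (-0.32 to 0.35). Between days the dMF1/2 libraries did not overlap, with a mean of 196 ± 20.4 at P14 and 253 ± 11.6 at P16 on the common scale, but the log2 difference of 0.37 (SE 0.15) did not pass the test (adjusted p = 0.173 by limma).

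Angpt2, whose best known source is the endothelium itself, was the lowest angiopoietin of this pair. Its P14 values were 85.7, 67.5 and 107 normalized reads in controls and 76.5, 80.0 and 103 in dMF1/2. Controls 2 and 3 of P16 were its highest libraries, at 197 and 135, next to 98.7 in control 1, and the P16 dMF1/2 libraries held 106, 126 and 79.4. The summed endothelial markers were also highest in these 2 controls, at 1786 and 1677 normalized reads against 1084 in control 1. The genotypes overlapped on both days, with a log2 difference of 0.01 (-0.51 to 0.53) at P14 and -0.43 (-1.06 to 0.19) at P16. The P16 value was -0.18 without control 2, -0.25 without dMF1/2 3 and -0.67 without control 1. In the controls the day difference was 0.65 (SE 0.27, adjusted p = 0.120 by limma), and 0.39 without control 2 of P16. Reads of Angpt2 per read of Angpt1, a ratio not corrected for length, were 0.344 to 0.409 in the P14 controls and 0.371 to 0.505 in the P14 dMF1/2 libraries, and 0.321, 0.785 and 0.630 in the P16 controls against 0.390, 0.493 and 0.322 in the P16 dMF1/2 libraries, so this ratio overlapped between genotypes on both days.

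Flt1 was the member with the largest genotype difference. The P14 controls held 335, 148 and 522 normalized reads and the P14 dMF1/2 libraries 112, 111 and 119. The P16 controls held 563, 654 and 939 and the P16 dMF1/2 libraries 482, 158 and 337. On both days every dMF1/2 library was below every control, although control 2 of P14 came close to the dMF1/2 level. At P14 the mean was 114 ± 4.34 against 335 ± 187, a ratio of 0.340 (log2 -1.37, SE 0.41, 95% confidence interval -2.34 to -0.40; without both libraries numbered 1, -1.27, -2.65 to 0.11), and at P16 325 ± 162 against 719 ± 196, a ratio of 0.453 (log2 -1.25, SE 0.38, -2.11 to -0.38).

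Neither Flt1 difference passed the test by limma, at adjusted p = 0.453 for P14 and 0.111 for P16, and the exact permutation p was 0.1 on each day, the smallest possible. DESeq2 on the recovered reads called it at P14 (log2 -1.56, adjusted p = 0.0102, in a fit that called 1.55% of all genes) and edgeR's quasi-likelihood test did not (adjusted p = 0.343). With the replicate block the adjusted p was 0.0761 at P14 and 0.0503 at P16. Leaving out 1 library at a time kept the P14 value between -0.96 and -1.87 and the P16 value between -0.80 and -1.60, with the smallest P16 value without dMF1/2 2, its lowest library. No member passed limma between genotypes on either day, where 0.0525% of all genes did at P14 and 4.32% at P16. The members whose groups did not overlap were Flt1 at P14, where 12.7% of all genes did not overlap, and Flt1, Vegfa and Kdr at P16, where 24.5% did not.

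Flt1 also stood higher at P16 than at P14 within each genotype, with no overlap in either. The log2 difference was 1.20 (SE 0.44, adjusted p = 0.0892 by limma) in controls and 1.32 (SE 0.44, adjusted p = 0.103) in dMF1/2, and neither passed the test. It was called in controls without control 3 of P14 (1.61, adjusted p = 0.0345), and in dMF1/2 without dMF1/2 2 of P16 (1.77, adjusted p = 0.0420) or by DESeq2 (1.47, adjusted p = 0.00981). The other way, the difference was 0.71 in controls without control 2 of P14 (adjusted p = 0.253 by limma) and 0.97 in dMF1/2 without dMF1/2 1 of P16 (0.329). The interaction of genotype and day was 0.12 on the log2 scale, with a 95% confidence interval from -1.26 to 1.49.

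Kdr, the main signaling receptor for Vegfa, did not follow Flt1. Its P14 controls held 264, 321 and 265 normalized reads and its P14 dMF1/2 libraries 239.6, 244 and 331, overlapping groups with a log2 difference of -0.07 (-0.45 to 0.31). At P16 the controls held 91.7, 254 and 264 and the dMF1/2 libraries 284, 292 and 510.2, so every dMF1/2 library was above every control. The P16 difference was 0.92 on the log2 scale (SE 0.41, 95% confidence interval -0.02 to 1.87), a ratio of 1.78, and did not pass the test (adjusted p = 0.274 by limma, exact permutation p = 0.1). Without control 1, the lowest library, it was 0.43. The interaction of genotype and day was 0.99 (-0.12 to 2.10, unadjusted p = 0.0753 by limma) and 0.49 without control 1 of P16, and no gene of 13415 passed the adjusted test of that interaction, where the share of all genes called was 0%; 7 passed by DESeq2, none of them a member.

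Between days the control values of Kdr did not overlap, with a mean of 287 ± 33.0 at P14 and 200.2 ± 95.3 at P16 on the common scale (log2 -0.66, SE 0.36, adjusted p = 0.231 by limma), and the difference was -0.16 without control 1 of P16. Control 1 of P16 also had the lowest summed level of the 10 DP markers among all 12 libraries, 43003 normalized reads on the common scale, next to 72703 and 82897 in the other P16 controls. The DP marker sum of the P16 dMF1/2 libraries was 82709, 97705 and 126033, highest in dMF1/2 3, which was also the highest for Kdr. At P14 this did not hold. Control 1 and dMF1/2 1 of P14 had the highest DP marker sums, 140541 and 139807, and, narrowly, the lowest Kdr values of their genotypes that day. The part of the DP marker sum in the Kdr values was not tested. Among the 4 members with no overlap between days in the controls, Vegfa, Vegfb and Kdr were lower at P16 and Flt1 higher, in a comparison where 36.0% of all genes did not overlap. In the dMF1/2 libraries these were Vegfa and Vegfb, lower, and Angpt1 and Flt1, higher, where 27.6% of all genes did not overlap.

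The 2 receptors were also set against each other within each library. Reads of Flt1 per read of Kdr, again not corrected for length, were 1.27, 0.462 and 1.97 in the P14 controls and 0.467, 0.454 and 0.359 in the P14 dMF1/2 libraries, which overlap at control 2. They were 6.14, 2.58 and 3.56 in the P16 controls and 1.70, 0.540 and 0.660 in the P16 dMF1/2 libraries. Every P16 control was above every other library by this ratio, which was not tested.

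**Figure D3:**
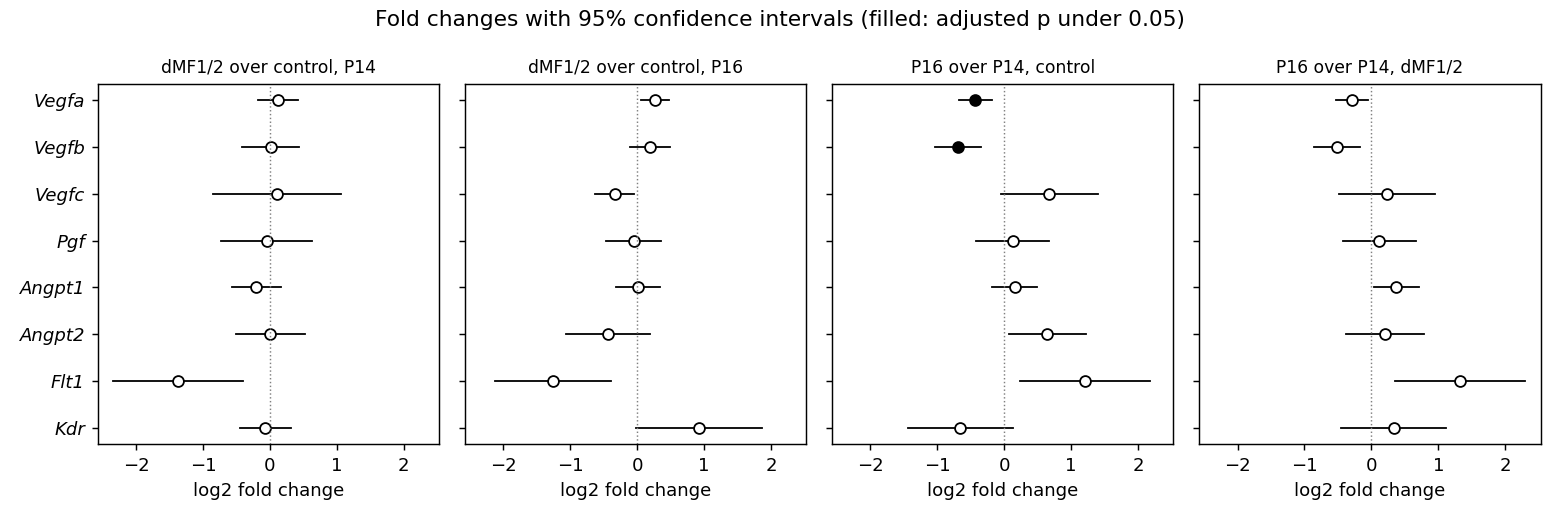
Log2 fold changes of the 8 genes with 95% confidence intervals from limma in 4 comparisons of 3 against 3 libraries, on the log2(normalized reads + 1) scale. Filled points passed an adjusted p of 0.05, which was the case for Vegfa (-0.43) and Vegfb (-0.69) between days in the controls.

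The comparisons of genotypes and of days share their libraries, so a high or low library enters more than 1 of them. A difference against the controls of P16, for example, uses the same 3 libraries as the change between days in the controls.

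The other receptors and co-receptors of these ligands divided between days and genotypes. This list holds Nrp1 and Nrp2, co-receptors of VEGF ligands and semaphorins, Tek, its relative Tie1, the phosphatase Ptprb that acts on Tek, and Flt4. At P16, 1 of 6 tested was lower in dMF1/2 and none higher, where 4.32% of all genes tested passed, with a median log2 difference of -0.73 against -0.00429 over all genes. Nrp2, the co-receptor of Vegfc, was the called gene, with 4886, 4959.8 and 5569 normalized reads in controls and 3787, 2897 and 3043 in dMF1/2 (log2 -0.67, SE 0.12, adjusted p = 0.0210 by limma). At P14 none of 5 tested passed, where 0.0525% of all genes did, and Nrp2 was the one that passed with the replicate block (-0.54, adjusted p = 0.0185), in a fit where 1.68% of all genes passed.

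In the controls 2 of 6 passed between days, where 14.5% of all genes did. Tek fell (log2 -0.94, SE 0.26, adjusted p = 0.0341 by limma), from 750.0, 489 and 366 normalized reads at P14 to 224, 311 and 296 at P16. Nrp1 rose (0.53, SE 0.15, adjusted p = 0.0346), from 1634, 1936 and 1993 to 2608, 2999.9 and 2649. Without both P14 libraries numbered 1 neither passed (Tek -0.66, adjusted p = 0.0671, and Nrp1 0.44, adjusted p = 0.0957, by limma). Tek was the one gene of this list with a fold change below 0, beside 5 above it. Flt4 had 0.84 to 11.1 normalized reads at P14, below the minimum for testing, and 72.6 in control 2 of P16 with 2.80 to 20.5 in the other P16 libraries. The 3 lymphatic markers also summed highest in control 2 of P16, at 264 normalized reads against 93.4 and 87.2 in the other P16 controls and 49.5 to 107 in dMF1/2, and their part in the Flt4 and Vegfc values was not tested.

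Among 9 other ligands of the same families, no gene passed between genotypes on either day, of 8 tested at P14, where 0.0525% of all genes passed, and 7 at P16, where 4.32% did. Angptl4, a secreted angiopoietin-like protein best known as an inhibitor of lipoprotein lipase, rose between days in the controls (log2 0.82, SE 0.20, adjusted p = 0.0225 by limma), where 14.5% of all genes passed, and did not pass without both P14 libraries numbered 1 (adjusted p = 0.0657). Its P16 controls held 4367, 2222 and 2303 normalized reads against 1540.0, 1463 and 1668 at P14. Figf, the gene of VEGF-D, held 134 to 139 normalized reads in the P16 controls and 88.6 to 109 in the P16 dMF1/2 libraries, without a call.

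The oxygen-sensing list holds the hypoxia-inducible factors that activate Vegfa and the enzymes that lead to their breakdown. Of 9 tested at P16, 1 was higher and 1 lower in dMF1/2, where 4.32% of all genes passed, and none of 9 passed at P14, where 0.0525% did. With the replicate block 2 were higher at P16, with Vhl added (adjusted p = 0.0339 by limma), in a fit where 10.4% of all genes passed. Egln3, a prolyl hydroxylase that is also induced by low oxygen, was lower at P16 (log2 -1.39, SE 0.25, adjusted p = 0.0248 by limma), with 311, 158 and 296 normalized reads in controls and 104, 87.7 and 86.8 in dMF1/2, and it rose in the controls between days (1.46, adjusted p = 0.00540). Hif3a, which can oppose the other factors, was higher in dMF1/2 at P16 (0.89, SE 0.18, adjusted p = 0.0320), at 455, 320.1 and 442 against 177, 247 and 229. Hif1a itself differed by less than the spread between libraries, from 2328 to 2799 in the dMF1/2 libraries and from 2458 to 2855 in controls at P16.

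Of the hypoxia-responsive genes, 1 of 10 tested passed between genotypes at P16 (4.32% of all genes), Eno1, a glycolytic enzyme, which was lower in dMF1/2 (log2 -0.40, SE 0.08, adjusted p = 0.0375 by limma). Between days in the controls, 1 of 11 rose and 1 fell where 14.5% of all genes passed, Bnip3 (0.60, adjusted p = 0.0299) and Ldha (-0.39, adjusted p = 0.0498; 0.0802 without both P14 libraries numbered 1), and the list median was -0.07. Vegfa, which hypoxia is known to induce, was kept out of this list, and its fall of 0.43 on the log2 scale stands beside a list with 4 genes above 0 and 7 below. Without both P14 libraries numbered 1 that lean turned, with more genes of the list above 0 than below, while Vegfa was at -0.47.

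Other angiogenic factors and secreted inhibitors of angiogenesis had no call between genotypes on either day, of 9 tested in each list, where 0.0525% of all genes passed at P14 and 4.32% at P16. In the controls Fgf2 (log2 0.66, adjusted p = 0.00988) and Hgf (0.65, adjusted p = 0.0291), both endothelial growth factors, rose between days (14.5% of all genes passed), and Mdk, a heparin-binding growth factor, fell (-0.86, adjusted p = 0.0452, all by limma). Among the inhibitors, Thbs1, which encodes thrombospondin-1, rose (1.06, adjusted p = 0.0250) and Vash1, vasohibin, fell (-0.62, adjusted p = 0.0438). Vash1 also fell in the dMF1/2 libraries (-0.74, adjusted p = 0.0387), the only gene of these pathway lists that passed between days in that genotype with all 12 libraries, where 5.80% of all genes passed. Without both P14 libraries numbered 1, Hgf (adjusted p = 0.0558 by limma), Mdk (0.105), Thbs1 (0.0733) and Vash1 (0.0975 in controls and 0.0668 in dMF1/2) did not pass. In dMF1/2 that fit instead called the inhibitor Adamts1 (0.82, adjusted p = 0.0313 by limma) and Bnip3 of the hypoxia list (0.63, 0.0468), both higher at P16. It called 819 of all 13416 genes tested. Thbs1 and Fgf2 were lower in dMF1/2 at P16 with the replicate block (-1.15, adjusted p = 0.0334, and -0.57, adjusted p = 0.0172), in a fit where 10.4% of all genes passed.

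Markers of vessel cells were set beside the receptors. The 11 endothelial markers summed to 821, 529 and 1036 normalized reads in the P14 controls and 556, 763 and 999 in the P14 dMF1/2 libraries, which overlap, and none of 7 tested passed, where 0.0525% of all genes did. At P16 the sums were 1084, 1786 and 1677 in controls and 602, 908 and 642 in dMF1/2, without overlap. Plvap (log2 -1.42, SE 0.15, adjusted p = 0.00508 by limma) and Mmrn2 (-1.73, SE 0.32, adjusted p = 0.0248) were lower, 2 of 10 tested where 4.32% of all genes passed, all 10 tested had a fold change below 0, and the median was -0.97. With the replicate block 4 of 10 were lower, with Esam and Pecam1 added, in a fit where 10.4% of all genes passed. In the controls 3 of 10 rose between days, Emcn, Esam and Mmrn2, where 6.26% of all genes were called higher, with a list median of 1.58 against 0.01 over all genes. Mmrn2 did not pass without both P14 libraries numbered 1 (adjusted p = 0.0576 by limma). No endothelial marker was at 0 in all 3 libraries of a group.

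All Flt1 values of dMF1/2 thus lay below the controls at P14, where the endothelial sum overlapped between genotypes, and at P16, where that sum did not overlap. The Kdr values of dMF1/2 lay above the controls at P16, the opposite side from the endothelial sum. The 8 mural cell markers, genes of pericytes and smooth muscle, summed to 35235 to 36164 normalized reads in the P16 controls and 19661 to 24664 in the P16 dMF1/2 libraries, and Cspg4 (log2 -2.05, SE 0.24, adjusted p = 0.00604 by limma) was the called gene of 7 tested, where 4.32% of all genes passed. The 10 DP markers, whose sum is carried by the few most abundant, summed to 43631 to 84309 normalized reads in the P16 controls and 84597 to 128445 in the P16 dMF1/2 libraries. Of the 10, 7 had a fold change above 0 and 3 below, and 3 passed against the same 4.32%, with Alpl (2.45, adjusted p = 0.00329) and Fgf10 (0.96, adjusted p = 0.0258) higher and Crabp1 (-0.66, adjusted p = 0.0424) lower. With the replicate block 7 of 10 were called higher and 2 lower at P16, in a fit where 10.4% of all genes passed, and 2 of 7 mural cell markers were lower, with Abcc9 added. The part of the endothelial, mural and DP marker levels in the Flt1, Kdr, Angpt2, Vegfa and Vegfc values was not tested.

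**Figure D4:**
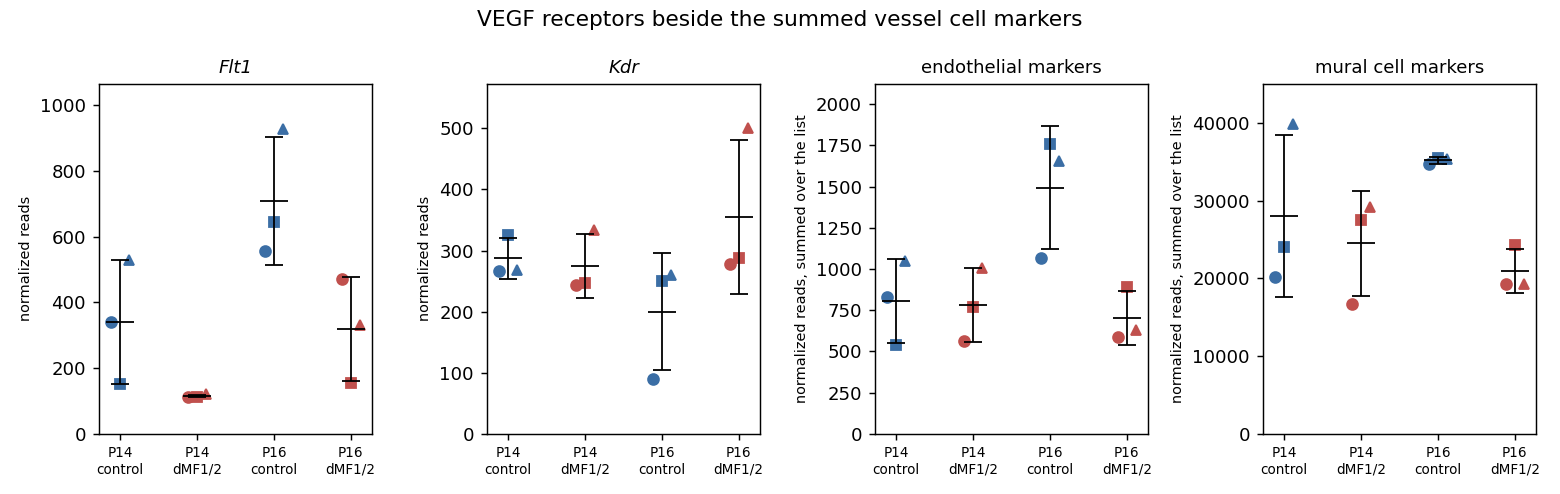
Normalized reads of Flt1 and Kdr and the summed endothelial and mural cell markers in the 12 libraries, rescaled over all libraries together. Circles, squares and triangles are replicates 1, 2 and 3, and the bars are the mean and SD of 3 libraries. At P16 the dMF1/2 libraries lie below the controls for Flt1 and both sums and above them for Kdr.

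**Figure D5:**
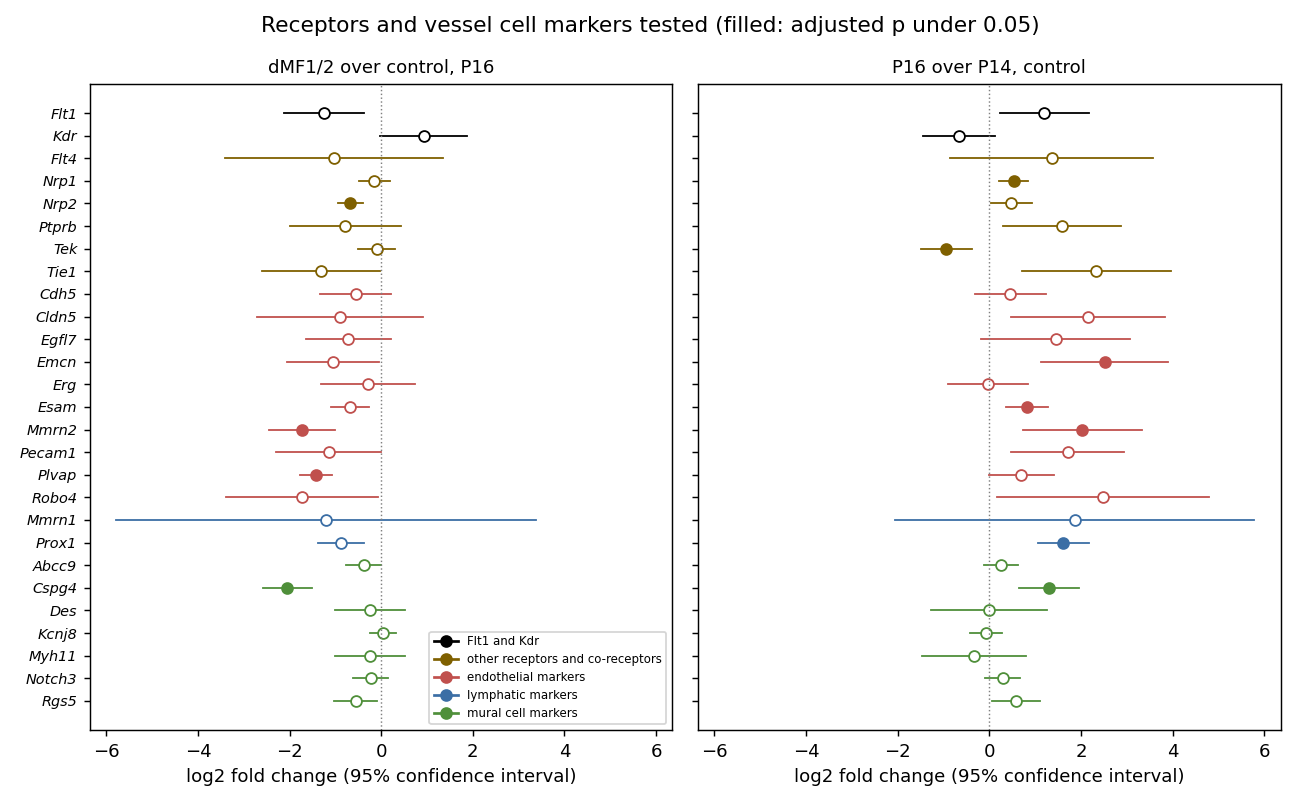
Log2 fold changes with 95% confidence intervals of the receptors, co-receptors and vessel cell markers that passed the minimum level, for dMF1/2 over control at P16 and for P16 over P14 in the controls. Filled points passed an adjusted p of 0.05, among them Nrp2 (-0.67), Plvap (-1.42) and Cspg4 (-2.05) at P16.

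Each member's pattern over the 12 libraries was compared with all other genes. The 2 genes most like each member were taken by Pearson's r of log2 values over the 12 libraries, which share groups, depth and days, so the values are descriptions. Klf13 (r = 0.971) was one of the genes most like Flt1, and Kdr was most like Frem1 (0.928) and Smoc1 (0.913). Angpt2 was most like Sox7 (0.905), a transcription factor of endothelial cells, and Ptprb (0.901). Vegfc was most like Aspn (0.979) and Pxdc1 (0.978), Vegfa most like Lrp11 (0.954) and Pnisr (0.953), and Vegfb most like Prr12 (0.962) and Zfp362 (0.956). Pgf had Tmod1 (0.930) and Slc35a2 (0.916), and Angpt1 had Ciart (0.939), a gene of the circadian clock, and Gm12216 (0.895). Between members, the 5 values farthest from 0 were -0.843 for Vegfa and Angpt2, -0.783 for Vegfa and Flt1, -0.744 for Vegfb and Vegfc, 0.729 for Vegfa and Vegfb and 0.711 for Vegfc and Pgf.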

How the data were processed

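Per the methods and labels, the authors trimmed single-end reads of rRNA-depleted, strand-specific libraries with Trimmomatic, mapped them with Tophat (version 2) to mm10, counted them per Ensembl gene (GRCm38.p4) with HTSeq-count and normalized them with DESeq2. The deposited signal values are reads divided by size factors, set for each day separately. All values (100%, tolerance 0.01) gave whole reads. Columns of the authors' own comparisons (mean, log2 fold change and its error, statistic, p and adjusted p) were not used.

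The main test was limma 3.58.1 (R 4.3.3) with trend on log2(value + 1), over genes with a mean of at least 10 (13334 at P14, 13457 at P16), with Benjamini-Hochberg adjustment over all of them and a threshold of 0.05. Fold changes are on this scale, which understates the change of low genes. Days were compared in 1 fit of 4 groups on recovered reads rescaled over 12 libraries by the median of ratios (14986 shared genes, 13415 tested). DESeq2 1.42.0 and edgeR 4.0.16 on recovered reads were alternatives, as were other pseudocounts, filters and scalings, a replicate block and leaving out libraries. The fit was tested on simulated data. The study gives 3 mice per genotype and day, and the labels do not say which litter or sort a library came from.

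Levels per kb used the exonic length of GENCODE vM21. Within a day, same-numbered libraries deviated together (correlations 0.304 to 0.586 at P14 and 0.256 to 0.311 at P16), which the labels do not explain, so, between genotypes, the blocked value stands beside a member where it changes the call. The members and gene lists were chosen with earlier results of these data known. Named genes were all members, and, of the other lists, genes called in a comparison and up to 4 others by level. The 2 targeted genes were added after the data were seen, as was leaving out both P14 libraries numbered 1. One gene by likeness to Flt1 is not reported here.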

Additional observations from a re-analysis of the deposited data

How the results depend on the processing

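Counts of members called, 0 of 8 at P14 and at P16, 2 between days in controls and 0 in dMF1/2, moved as follows. DESeq2 called 1 at P14 and 2 between days in dMF1/2. The replicate block called 1 at P16 and 0 between days in controls, where fitting only the compared libraries or leaving out both P14 libraries numbered 1 called 1 each. Leaving out 1 library gave 0 at P14, 0 at P16, 0 to 3 between days in controls and 0 to 1 in dMF1/2. Between days the block was fitted on the compared libraries alone, so its counts are to be read against that fit, which by itself lost the Vegfa call (adjusted p = 0.0693 by limma). With block and fewer libraries together, Vegfa was at 0.155 and Vegfb at 0.104, and Nrp1, Tek, Angptl4, Egln3, Bnip3, Ldha, Fgf2, Hgf, Mdk, Thbs1, Vash1, Emcn, Esam and Mmrn2 were not called either (0.0788 to 0.163), nor was Vash1 in dMF1/2 (0.0818). Blocking changed no other member's call.

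All genes called at P14 numbered 7, and 207 by DESeq2, 224 with the replicate block, 11 in a joint fit of 12 libraries and 0 to 18 with 1 library left out. At P16 they numbered 582, and 1123, 1403 and 149 to 684 by DESeq2, block and leaving out 1 library. Between days they numbered 1951 in controls (806 with only the compared libraries and 14 with the block added to these, 951 without both P14 libraries numbered 1, 693 to 2129 with 1 left out) and 778 in dMF1/2 (1341 by DESeq2, 322 with only the compared libraries and 137 with the block added to these, 257 to 861 with 1 left out). Across days replicate numbers did not pair the libraries (correlations -0.130 to -0.0545 in controls and -0.162 to 0.208 in dMF1/2). The interaction called 0 genes by limma, 7 by DESeq2, 2 without both P14 libraries numbered 1 and 0 to 2 with 1 left out.

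Signs turned only for differences that passed no test. Without both P14 libraries numbered 1 the P14 genotype difference was -0.012 for Vegfb, -0.050 for Vegfc and 0.061 for Pgf, and the day difference -0.046 for Pgf in controls and -0.048 for Vegfc and -0.16 for Pgf in dMF1/2. DESeq2 and edgeR gave -0.0097 and -0.0065 for Angpt2 at P14 and -0.0013 and -0.0011 for Angpt1 at P16, and TMM scaling gave 0.0012 for the Pgf interaction. With 1 library left out the P14 genotype difference ran from -0.094 to 0.20 for Vegfb, -0.33 to 0.39 for Vegfc, -0.22 to 0.23 for Pgf, -0.16 to 0.17 for Angpt2 and -0.22 to 0.022 for Kdr. The P16 difference ran from -0.20 to 0.046 for Pgf and -0.11 to 0.15 for Angpt1, the day difference from -0.046 to 0.30 for Pgf in controls, and from -0.16 to 0.26 for Pgf and -0.048 to 0.45 for Vegfc in dMF1/2. The interaction ran from -0.0070 to 0.29 for Vegfb, -0.28 to 0.16 for Pgf and -0.29 to 0.62 for Flt1. The cause was not tested. At 19302358 to 29860750 reads per library, the lowest receptor counts (Flt4 at P14) stayed below the minimum for testing.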
